A study of Mus musculus with 30 samples.

Results

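Retina organoids collected on differentiation day 25 (D25) were compared with organoids collected on day 22 (D22), over all genes and with replicate 2 described apart from replicates 1 and 3. The comparison takes 6 of the 30 RNA-seq libraries of a mouse time course, 3 per day, and fits them together with the other days. All organoids came from 1 wild-type Nrl-GFP clone of induced pluripotent stem cells (iPSCs), so the 2 days differ in time and not in genotype. The clone was reprogrammed from fibroblasts of Nrl-GFP embryos with doxycycline-inducible lentiviral Oct3/4, Sox2, Klf4 and c-Myc. In these mice the Nrl promoter drives green fluorescent protein, but no cell was sorted by it. Both days lay in 1 medium window of a modified HIPRO protocol: DMEM/F12 with GlutaMAX, N2 supplement, 1 mM taurine, 500 nM 9-cis retinal and IGF1 (an insulin-like growth factor) at 100 ng/ml, at 20% oxygen. The next change of medium, at D26, came after both collections. Each library was made from 100 ng of RNA from the dissected neural retina of 12 organoids. The labels call the 3 libraries of a day biological replicates and do not say whether they came from separate cultures. The p-values therefore measure the spread between libraries of 1 day, pooled over the 10 days of the series.

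Rod photoreceptors detect dim light in stacked discs of the outer segment, a modified cilium. Light acts through the G protein transducin on a phosphodiesterase, and the fall of cyclic GMP closes cation channels of the outer segment membrane. In the mouse retina the rods are fixed in their fate by the transcription factors Otx2, Crx, Nrl and Nr2e3 well before outer segments grow and ribbon synapses form.

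The 6 libraries held 16.77 to 20.85 M estimated counts, and 19897 genes were tested with edgeR's quasi-likelihood F test on a model of all 30 libraries. Levels are counts scaled to library size (CPM, counts per 1 M) after TMM scaling, and changes are log2 values of D25 over D22, so that a positive value is higher at D25. A gene was called at a Benjamini-Hochberg adjusted p below 0.05 over all tested genes. Over the 6 libraries the correlation of log2 CPM between libraries of 1 day was 0.9775 to 0.9845. Replicate 2 stood apart at both days in 1 feature of the estimated counts: pseudogenes of the ribosomal gene Rpl3 took 31.8% (D22) and 24.1% (D25) of the counts of Rpl3 and its pseudogenes, against 82.2% to 85.4% in replicates 1 and 3. Over D10 to D25, 839 of the 19897 genes differed between replicate 2 and replicates 1 and 3 in a fit with that term, among them 15 of the genes called higher at D25 and 11 of those called lower. Markers of the dissected tissue were present in every library: the 16 listed photoreceptor regulators summed to between 2567 CPM (D22 replicate 1) and 7147 CPM (D25 replicate 2), while the microglia and blood list summed to at most 4.88 CPM. CPM is not corrected for gene length, so levels of different genes were not compared, and a member named as having the highest count was picked by reads.

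Between the 2 days, 288 genes rose (1.45% of those tested) and 203 fell (1.02%). Of these, 126 of the risen and 84 of the fallen genes changed at least 2-fold in the fit, and 276 and 186 were protein coding. Over all 19897 tested genes, 1678 changed at least 2-fold and 16205 were protein coding. The 3 libraries of D25 did not overlap the 3 of D22 for 284 of the risen and 189 of the fallen genes, against 4217 of all tested genes. The calls came from these same libraries, so this separation adds no support to them. The size of these counts rested on single libraries: the total of 491 became 75 without D22 replicate 1, 96 without D25 replicate 2, 217 without D22 replicate 3, 283 without D25 replicate 1 and 766 without D22 replicate 2. Without D22 replicate 1, 46 genes were called higher (0.231%) and 29 lower (0.146%). With the replicate number as a block in a fit of the 6 libraries, 776 genes were called higher (3.9%) and 664 lower (3.34%), and these held 270 of the 288 and 178 of the 203. The same block over all 30 libraries called 310 higher (1.56%) and 234 lower (1.18%). Values with the block are given from both fits, of which the fit of 6 libraries has 2 residual degrees of freedom. Scaling by library size alone gave 133 higher and 154 lower, so that 46.3% of its calls were higher, against 58.7% in the TMM fit. The plot of called genes by setting shows these counts side by side. Because the samples are bulk tissue, fewer cells of a type and less RNA per cell cannot be told apart in any of these values.

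**Figure D1:**
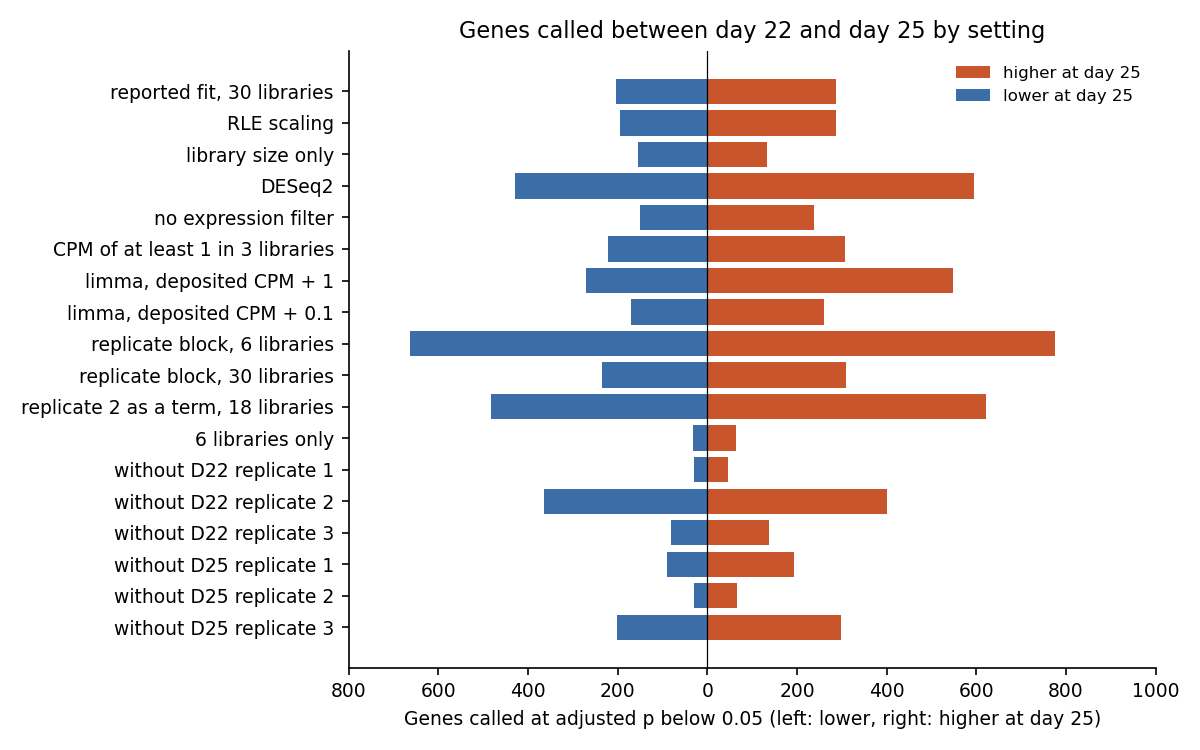
Number of genes called at adjusted p below 0.05 (horizontal axis), lower at D25 to the left and higher to the right, for the reported fit and each alternative setting (rows). The reported fit called 288 genes higher and 203 lower, and the total ranged from 75 to 1440 over the settings drawn.

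Rod phototransduction had the highest median change of the gene lists. Of its 21 listed genes, all tested, 13 rose and none fell, with a median log2 change of 1.34 where the median of all tested genes was 0.00. The summed level of the list was 1292, 2565 and 2336 CPM in D22 replicates 1, 2 and 3 and 4847, 7721 and 4947 CPM in the D25 replicates. The groups did not overlap, D22 replicate 1 was the lowest library and D25 replicate 2 the highest. The count of 13 became 6 without D22 replicate 1 and 6 without D25 replicate 2, and it was 9 with scaling by library size alone. With the replicate block it was 15 in 6 libraries and 14 in 30. A fit of the 6 libraries only, without the block, gave 5.

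The subunits of rod transducin, the G protein of the light response, differed. Gnat1, the rod alpha subunit, was low at 1.75, 3.55 and 1.39 CPM in D22 replicates 1, 2 and 3 and 3.08, 4.32 and 4.18 CPM at D25, with overlapping libraries, and did not pass (log2 change 0.79, SE 0.42, adjusted p = 0.37). Its beta subunit Gnb1 stood at 503, 686 and 665 CPM and then 1016, 1505 and 1024 CPM, with every D25 library above every D22 library, and rose (log2 change 0.94, SE 0.13, adjusted p = 0.000317). Gngt1, the rod gamma subunit, went from 44.7, 71.4 and 57.3 CPM to 161, 244 and 148 CPM and rose (log2 change 1.67, SE 0.29, adjusted p = 0.00221). Pdc, whose product phosducin binds the beta-gamma pair, was at 267, 626 and 512 CPM at D22 and 1067, 1457 and 1047 CPM at D25 and rose (log2 change 1.35, SE 0.35, adjusted p = 0.0358). Thus the beta and gamma subunits and phosducin passed the test and the alpha subunit did not. At D32 the mean of Gnat1 was 70.1 CPM. Gnb1 and Gngt1 passed in each of the 6 leave-one-out fits. Pdc did not pass without D22 replicate 1, D22 replicate 3, D25 replicate 1 or D25 replicate 2, with adjusted p of up to 0.265.

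All 3 subunit genes of the rod phosphodiesterase rose. Pde6a, a catalytic subunit, was at 1.75, 2.58 and 3.03 CPM in the D22 replicates and 10.14, 16.2 and 9.21 CPM at D25 (log2 change 2.27, SE 0.44, adjusted p = 0.00515). Pde6b, the other catalytic subunit, was at 97.8, 244 and 153 CPM and then 526, 662 and 351 CPM (log2 change 1.64, SE 0.31, adjusted p = 0.00462). Pde6g, the inhibitory subunit, was at 35.3, 47.7 and 84.1 CPM and then 167, 270.0 and 165 CPM (log2 change 1.85, SE 0.30, adjusted p = 0.00154). None of the 3 had overlapping days, and D25 replicate 2 held the highest value of each. The channel that cyclic GMP keeps open is built from Cnga1 and Cngb1, and Cnga1 (chr5:72603696-72644275, GRCm38) had the largest rise of the genes named here. It was at 0.667, 3.34 and 4.46 CPM in the D22 replicates and 22.7, 44.6 and 31.2 CPM at D25 (log2 change 3.53, SE 0.41, adjusted p = 0.000139), with means of 2.83 ± 1.95 CPM (SD, n = 3) and 32.8 ± 11.1 CPM (SD, n = 3), so that the lowest D25 library stood well above the highest D22 library. Cngb1, the other channel subunit, was at 20.6, 76.9 and 53.1 CPM and then 171, 434 and 188 CPM (log2 change 2.40, SE 0.45, adjusted p = 0.00409). Slc24a1, the rod sodium/calcium-potassium exchanger that works beside the channel, was at 2.00, 1.06 and 2.68 CPM and then 4.02, 2.81 and 6.64 CPM, with separate groups, and did not pass (log2 change 1.22, SE 0.38, adjusted p = 0.0836), and the replicate block gave adjusted p = 0.0169 in 6 libraries and 0.0838 in 30. Pde6g and Cnga1 passed in each of the 6 leave-one-out fits. Pde6a, Pde6b and Cngb1 did not pass without D22 replicate 1 or D25 replicate 2, with adjusted p of up to 0.0675, 0.0643 and 0.0605 in turn.

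The genes that end the light response were divided. Sag, the rod arrestin, was at 108, 309 and 291 CPM in the D22 replicates and 455, 1049 and 452 CPM at D25 and rose (log2 change 1.47, SE 0.37, adjusted p = 0.0306). Rcvrn, a calcium sensor of photoreceptors, was at 3.65, 7.04 and 13.1 CPM and then 20.8, 43.7 and 36.4 CPM and rose (log2 change 2.08, SE 0.32, adjusted p = 0.00118). Grk1, a photoreceptor kinase that Rcvrn restrains, was at 26.0, 28.4 and 25.8 CPM and then 32.6, 46.6 and 28.7 CPM, with separate groups a short distance apart, and did not pass (log2 change 0.43, SE 0.28, adjusted p = 0.504). In the complex that speeds the hydrolysis of GTP by transducin, 1 of the 3 genes passed. That was Rgs9, the catalytic member, at 25.05, 38.5 and 28.4 CPM and then 43.5, 91.6 and 45.1 CPM (log2 change 0.97, SE 0.23, adjusted p = 0.0224). Its partner Gnb5 was at 37.3, 38.1 and 52.3 CPM and then 55.0, 74.7 and 57.0 CPM (log2 change 0.55, SE 0.17, adjusted p = 0.0775), and the anchor Rgs9bp was at 9.50, 16.9 and 42.8 CPM and then 45.6, 40.3 and 72.3 CPM (log2 change 1.19, SE 0.35, adjusted p = 0.0721). Rgs9bp overlapped between the days through D22 replicate 3 and passed with the replicate block (adjusted p = 0.0108 in 6 libraries and 0.04998 in 30). Rcvrn passed in each of the 6 leave-one-out fits. Sag and Rgs9 did not pass without D22 replicate 1, D22 replicate 3 or D25 replicate 2, with adjusted p of up to 0.299 and 0.299 in turn.

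Among the genes that restore cyclic GMP, the guanylate cyclase Gucy2e was at 51.4, 77.9 and 69.9 CPM at D22 and 153, 191 and 122 CPM at D25 and rose (log2 change 1.23, SE 0.29, adjusted p = 0.0205). The second cyclase, Gucy2f, stayed below 1 CPM in every library (log2 change 1.34, SE 0.76, adjusted p = 0.411). The calcium-dependent activators of the cyclases, Guca1a and Guca1b, did not pass. Guca1a was at 1.80, 0.912 and 2.23 CPM and then 0.607, 1.79 and 0.380 CPM (log2 change -0.82, SE 0.51, adjusted p = 0.465), and it was the 1 rod gene with a fitted value below 0. Guca1b was at 2.10, 0.709 and 0.943 CPM and then 0.888, 1.79 and 2.61 CPM (log2 change 0.49, SE 0.42, adjusted p = 0.632), and reached a mean of 60.4 CPM at D32. The 8 rod genes that did not pass were therefore Gnat1, Grk1, Slc24a1, Gnb5, Rgs9bp, Gucy2f, Guca1a and Guca1b, and 4 of them (Gnat1, Gucy2f, Guca1a and Guca1b) had no D25 library above 5 CPM. Gucy2e did not pass without D22 replicate 1, D22 replicate 3, D25 replicate 1 or D25 replicate 2, with adjusted p of up to 0.173.

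**Figure D2:**
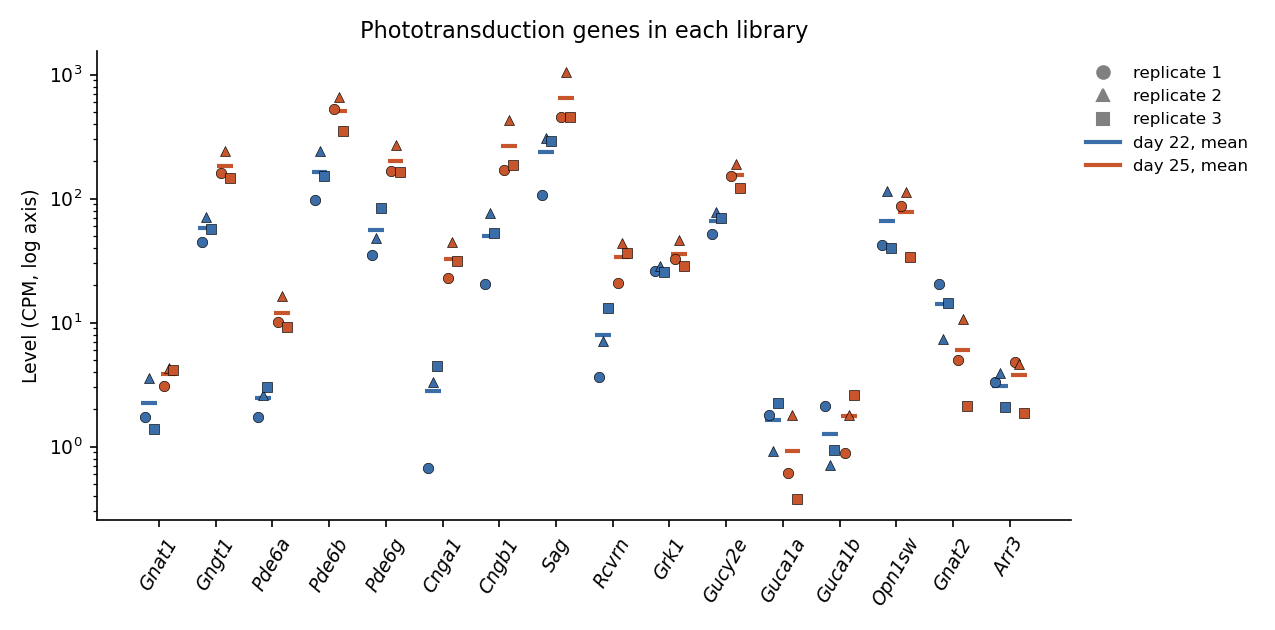
Level of rod and cone phototransduction genes in CPM (vertical log axis) in each of the 3 libraries of D22 and D25, with the mean of each day as a bar and the replicate as the symbol. The libraries of Cnga1 and Pde6a separate by day, while Gnat1, Guca1a, Guca1b and the cone genes Opn1sw, Gnat2 and Arr3 overlap.

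Promoter sequence is shown beside the rise, for members that moved together. CRX binds a core motif TAATCC and NRL binds sites holding TGCTGA, as background. The letters were searched on both strands (GGATTA and TCAGCA on the other strand) in windows from 250 bases before to 50 after each RefSeq start site (build GRCm38.p6). TAATCC stood in 6.17% of the 16559 windows of 13054 tested genes, in 13.2% of the 287 windows of 213 genes called higher, in 3.57% of the 196 windows of 150 genes called lower and in 34.8% of the 23 windows of the 19 called genes of the rod, cone and outer segment lists. TGCTGA stood in 16.7%, 20.2%, 17.9% and 26.1% of the same windows. A match is a description of the letters and not a bound site. Of the called genes of those lists whose window held TAATCC, 4 are shown as examples: Cnga1, Cngb1, Gngt1 and Sag. They are not ranked by rise against the other called genes of those lists. The 250 bases before their start sites are shown 5′ to 3′ on the strand of the gene, with matches to either motif in capitals.
Cnga1, chr5:72642753-72643002, minus strand: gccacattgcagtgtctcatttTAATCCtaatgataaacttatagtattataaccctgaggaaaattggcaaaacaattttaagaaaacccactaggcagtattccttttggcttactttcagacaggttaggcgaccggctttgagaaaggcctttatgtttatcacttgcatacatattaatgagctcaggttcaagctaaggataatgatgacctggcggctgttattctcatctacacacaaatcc
Cngb1, chr8:95306586-95306835, minus strand: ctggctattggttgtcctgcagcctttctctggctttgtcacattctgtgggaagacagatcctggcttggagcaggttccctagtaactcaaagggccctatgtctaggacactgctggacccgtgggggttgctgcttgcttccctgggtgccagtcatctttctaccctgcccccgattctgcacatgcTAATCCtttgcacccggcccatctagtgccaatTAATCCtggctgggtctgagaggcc
Gngt1, chr6:3993758-3994007, plus strand: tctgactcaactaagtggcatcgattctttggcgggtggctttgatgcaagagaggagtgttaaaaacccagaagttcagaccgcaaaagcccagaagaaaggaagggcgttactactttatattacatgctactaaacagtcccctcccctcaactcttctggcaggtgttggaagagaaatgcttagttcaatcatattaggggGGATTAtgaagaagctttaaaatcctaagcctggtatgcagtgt
Sag, chr1:87803430-87803679, plus strand: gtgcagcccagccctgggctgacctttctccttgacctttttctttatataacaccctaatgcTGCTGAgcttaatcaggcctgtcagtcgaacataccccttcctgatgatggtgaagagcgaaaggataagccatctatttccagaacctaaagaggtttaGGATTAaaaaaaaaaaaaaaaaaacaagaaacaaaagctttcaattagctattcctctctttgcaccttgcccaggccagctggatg
The TAATCC match began 228 bases before the start site in Cnga1, 58 and 25 bases before it in Cngb1, 44 in Gngt1 and 87 in Sag. Sag also held TGCTGA 187 bases before its start.

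Outer segment genes, from the disc rim to the surrounding matrix, also rose in number. Of 21 tested identifiers of 20 outer segment genes (Rp1 has 2, of which the second stayed below 1 CPM at D25), 13 rose and none fell, with a median log2 change of 1.16. The list summed to 2548, 3969 and 3121 CPM in the D22 replicates and to 6428, 8309 and 5557 CPM at D25, without overlap. Its count of 13 became 5 without D22 replicate 1, 5 without D25 replicate 2 and 6 without D22 replicate 3, and it was 8 with scaling by library size alone. The block gave 17 in 6 libraries and 15 in 30, and a fit of the 6 libraries only, without the block, gave 5.

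The products of a pair of genes meet at the rim of each disc, Prph2 and Rom1, and both genes rose. Prph2 was at 144, 255 and 259 CPM in the D22 replicates and 460.4, 756 and 507 CPM at D25 (log2 change 1.39, SE 0.33, adjusted p = 0.022). Rom1 was at 50.3, 136 and 127 CPM and then 273, 552 and 306 CPM (log2 change 1.85, SE 0.34, adjusted p = 0.0035). In both, D22 replicate 1 was the lowest library and D25 replicate 2 the highest. Impg1, a proteoglycan of the matrix around the outer segments, was at 4.00, 13.2 and 19.4 CPM and then 76.3, 87.5 and 70.3 CPM (log2 change 2.67, SE 0.37, adjusted p = 0.000317). Its relative Impg2 was at 309, 440.3 and 392 CPM and then 919, 940.0 and 698 CPM (log2 change 1.16, SE 0.27, adjusted p = 0.0166). These genes of the extracellular matrix had separate groups, and D22 replicate 1 was the lowest library of each. Rdh12, which reduces retinal released by light, had the smallest adjusted p of the list at 6.83, 10.5 and 10.7 CPM and then 28.5, 39.6 and 34.3 CPM (log2 change 1.87, SE 0.20, adjusted p = 7.53e-06). Rom1, Impg1 and Rdh12 passed in each of the 6 leave-one-out fits. Prph2 did not pass without D22 replicate 1, D22 replicate 3 or D25 replicate 2, with adjusted p of up to 0.19. Impg2 did not pass without D22 replicate 1, D22 replicate 3, D25 replicate 1 or D25 replicate 2, with adjusted p of up to 0.142.

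The other called members of the list were Prom1, Rp1, Rp1l1, Rpgrip1, Tulp1, Mak and Unc119, with log2 changes from 0.70 (Unc119, a chaperone of lipid-modified proteins such as transducin) to 1.60 (Rp1, a microtubule protein of the axoneme). Prom1, which acts in disc formation, was at 150.4, 242 and 171 CPM and then 422, 538 and 387 CPM (log2 change 1.26, SE 0.23, adjusted p = 0.003). Rpgrip1, a scaffold of the connecting cilium, was at 245, 439.6 and 210.0 CPM and then 762, 775 and 509.6 CPM (log2 change 1.19, SE 0.30, adjusted p = 0.0335). Both had separate groups. The member with the highest count that did not pass was Cdhr1, a protocadherin at the base of the outer segment, at 667, 814 and 671 CPM and then 1179, 1297 and 978 CPM (log2 change 0.68, SE 0.22, adjusted p = 0.105), for which the replicate block gave adjusted p = 0.00728 in 6 libraries and 0.106 in 30. Prom1 passed in each of the 6 leave-one-out fits. Unc119 did not pass without D22 replicate 1 or D25 replicate 2, with adjusted p of up to 0.121. Rp1, Rp1l1 and Tulp1 did not pass without D22 replicate 1, D22 replicate 3 or D25 replicate 2, with adjusted p of up to 0.122, 0.265 and 0.279 in turn. Rpgrip1 and Mak did not pass without D22 replicate 1, D22 replicate 3, D25 replicate 1 or D25 replicate 2, with adjusted p of up to 0.216 and 0.256 in turn.

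Among the transcription factors that set photoreceptor fate, Nrl and Samd11 rose. Of 16 listed photoreceptor regulators, 2 rose and none fell, with a median log2 change of 0.56, and with the replicate block the count was 7 in 6 libraries and 2 in 30. The count of 2 became 4 without D22 replicate 2, 3 without D25 replicate 3 and 0 without either D22 replicate 1 or D25 replicate 2. It was also 0 in a fit of the 6 libraries only, without the block. Nrl, the rod determinant whose promoter drives the reporter, was at 209.8, 443 and 378 CPM in the D22 replicates and 729.7, 1172 and 740.4 CPM at D25 and rose (log2 change 1.36, SE 0.30, adjusted p = 0.0127). Samd11, a sterile alpha motif protein of photoreceptor chromatin repression, was at 105, 234 and 237 CPM and then 459.8, 731 and 393 CPM and rose (log2 change 1.46, SE 0.33, adjusted p = 0.0139). Every D25 library of these 2 genes lay above every D22 library, and replicate 2 was the highest at D25 in both. Crx, which acts upstream of most photoreceptor genes, was at 441, 780.2 and 778 CPM and then 987, 1218 and 1048 CPM, without overlap, and did not pass (log2 change 0.70, SE 0.30, adjusted p = 0.228), and the block gave adjusted p = 0.0167 in 6 libraries and 0.147 in 30. Nr2e3, the rod factor that represses cone genes, was at 177, 469 and 330.2 CPM and then 508, 883 and 413 CPM, with an overlap between D22 replicate 2 and D25 replicate 3 (log2 change 0.88, SE 0.37, adjusted p = 0.229, and with the block adjusted p = 0.024 in 6 libraries and 0.0553 in 30). Otx2, needed to make photoreceptor precursors, was at 532, 722 and 553 CPM and then 731, 669 and 656 CPM and overlapped (log2 change 0.19, SE 0.16, adjusted p = 0.638). Thrb, the thyroid hormone receptor of cone opsin patterning, was at 69.6, 70.4 and 73.2 CPM and then 81.8, 77.0 and 69.7 CPM and overlapped (log2 change 0.10, SE 0.29, adjusted p = 0.934). Nrl and Samd11 did not pass without D22 replicate 1 or D25 replicate 2, with adjusted p of up to 0.136 and 0.146 in turn.

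Genes of the ribbon synapse, where photoreceptors release glutamate, rose in part. Of 20 tested identifiers of 19 genes (Cabp4 has 2), 8 rose and none fell, with a median log2 change of 0.70. The count was 2 without D22 replicate 1, 3 without D25 replicate 2, 5 without D22 replicate 3, 5 with library size alone and, with the replicate block, 12 in 6 libraries and 8 in 30. Cacna1f, the pore of the calcium channel that opens at the ribbon, was at 5.24, 9.37 and 5.16 CPM in the D22 replicates and 31.2, 41.1 and 21.5 CPM at D25 and rose (log2 change 2.25, SE 0.28, adjusted p = 9.25e-05). Cacnb2, a beta subunit of such channels that was named for its size of change over all genes, was at 4.57, 9.67 and 7.74 CPM and then 27.1, 33.5 and 28.7 CPM and rose (log2 change 2.02, SE 0.31, adjusted p = 0.000652). The days were far apart for both channel genes, the lowest D25 library standing more than 2-fold above the highest D22 library. Cplx4, a complexin of ribbon synapses, was at 4.93, 6.13 and 5.85 CPM and then 13.9, 22.4 and 12.8 CPM (log2 change 1.54, SE 0.25, adjusted p = 0.00184). Lrit1, a leucine-rich repeat protein of the photoreceptor synapse, was at 40.3, 71.7 and 61.0 CPM and then 125, 204 and 104 CPM (log2 change 1.32, SE 0.26, adjusted p = 0.00593). Egflam, which encodes pikachurin of the synaptic cleft, was at 88.3, 154 and 121 CPM and then 232, 287 and 198 CPM (log2 change 0.98, SE 0.20, adjusted p = 0.00677). The other called genes were Stx3, Pclo, Unc13b and Dlg4, with log2 changes from 0.69 (Dlg4, a synaptic scaffold) to 0.93 (Stx3, the syntaxin of ribbon synapses). Slc17a7, the vesicular glutamate transporter, was at 70.7, 86.5 and 108 CPM and then 128, 179 and 125 CPM, without overlap (log2 change 0.71, SE 0.20, adjusted p = 0.0625, and with the block adjusted p = 0.0302 in 6 libraries and 0.0587 in 30). Sv2b, a synaptic vesicle glycoprotein, was at 113, 177 and 159 CPM and then 232, 327 and 199 CPM, also apart (log2 change 0.76, SE 0.26, adjusted p = 0.117, and with the block adjusted p = 0.0169 in 6 libraries and 0.11 in 30). Of the genes of the ribbon itself, Pclo, the scaffold piccolo, rose (log2 change 0.87, SE 0.22, adjusted p = 0.0268), and Ctbp2 and Bsn did not pass, at log2 0.25 (adjusted p = 0.538) and 0.24 (adjusted p = 0.719). Cacna1f, Cacnb2 and Cplx4 passed in each of the 6 leave-one-out fits. Unc13b did not pass without D22 replicate 1, with adjusted p of up to 0.06. Lrit1 and Egflam did not pass without D22 replicate 1 or D25 replicate 2, with adjusted p of up to 0.1 and 0.0876 in turn. Stx3 did not pass without D22 replicate 1, D22 replicate 3 or D25 replicate 2, with adjusted p of up to 0.122. Pclo and Dlg4 did not pass without D22 replicate 1, D22 replicate 3, D25 replicate 1 or D25 replicate 2, with adjusted p of up to 0.206 and 0.158 in turn.

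Ciliary transport genes, which carry cargo through the connecting cilium, rose by log2 changes of 0.63 (Bbs2) to 1.10 (Cep290) where they passed. Of 28 listed genes, 8 rose and none fell, with a median log2 change of 0.41. Without D22 replicate 1 the count was 1, without D25 replicate 2 it was 3, without D22 replicate 3 it was 4 and without D25 replicate 1 it was 5, library size alone gave 4 and the block 9 in 6 libraries and 8 in 30. Of the 8, 5 belong to the BBSome, the coat complex that moves membrane proteins in cilia (Bbs1, Bbs2, Bbs5, Bbs7 and Bbs9). Bbs9 was at 30.1, 41.1 and 35.4 CPM in the D22 replicates and 64.8, 81.1 and 66.6 CPM at D25 (log2 change 0.99, SE 0.15, adjusted p = 0.000473). Bbs5 was at 16.2, 21.8 and 17.4 CPM and then 41.4, 39.6 and 31.4 CPM (log2 change 1.02, SE 0.19, adjusted p = 0.00372). Cep290, a protein of the transition zone, was at 35.6, 72.4 and 37.9 CPM and then 112, 111 and 90.6 CPM (log2 change 1.10, SE 0.26, adjusted p = 0.0185), and D22 replicate 2 lay closest to D25. Arl13b, a small GTPase of the ciliary membrane, was at 20.1, 18.7 and 19.8 CPM and then 37.7, 34.3 and 37.2 CPM (log2 change 0.90, SE 0.20, adjusted p = 0.0137). All 4 had separate groups. The member with the highest count that did not pass was Ahi1, another transition zone protein, at 80.0, 95.3 and 87.2 CPM and then 120.4, 112 and 118 CPM (log2 change 0.42, SE 0.13, adjusted p = 0.0757). Bbs9 passed in each of the 6 leave-one-out fits. Bbs5 and Ift122 did not pass without D22 replicate 1, with adjusted p of up to 0.0534 and 0.0544 in turn. Bbs1 did not pass without D22 replicate 1 or D25 replicate 2, with adjusted p of up to 0.0675. Arl13b did not pass without D22 replicate 1, D22 replicate 3 or D25 replicate 2, with adjusted p of up to 0.0772. Cep290, Bbs2 and Bbs7 did not pass without D22 replicate 1, D22 replicate 3, D25 replicate 1 or D25 replicate 2, with adjusted p of up to 0.174, 0.224 and 0.328 in turn.

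Of 9 tested visual cycle genes, which recycle retinal, 3 rose and none fell (1 without D22 replicate 1 and, with the block, 5 in 6 libraries and 3 in 30). They were Rdh12, given above, Rdh8 and Rbp3. Rdh8, a retinol dehydrogenase of outer segments, was at 15.0, 19.5 and 26.8 CPM in the D22 replicates and 55.5, 58.7 and 49.2 CPM at D25 (log2 change 1.41, SE 0.27, adjusted p = 0.00562). Rbp3, the retinoid carrier of the space around photoreceptors, was at 1204, 2440.3 and 1978 CPM and then 3636, 5240.0 and 3080.2 CPM (log2 change 1.09, SE 0.25, adjusted p = 0.0153). Neither gene had overlapping groups. Rlbp1, the retinal-binding protein of Müller glia and pigment epithelium, was at 42.3, 38.0 and 51.2 CPM and then 129.9, 103 and 78.6 CPM, also apart, and did not pass (log2 change 1.24, SE 0.38, adjusted p = 0.0841), and the block gave adjusted p = 0.00628 in 6 libraries and 0.0777 in 30. Rdh11, another retinol dehydrogenase and the member with the highest count that was not called, had a log2 change of 0.49 (adjusted p = 0.229, and with the block 0.0282 in 6 libraries and 0.223 in 30). Among 11 genes of polyunsaturated lipid synthesis, which supplies disc membranes, 3 rose and none fell, and the block called 5 higher and 1 lower in 6 libraries and 3 higher in 30. These were Agpat3 (log2 change 0.77, SE 0.20, adjusted p = 0.0395), Acsl6 (log2 change 0.66, SE 0.17, adjusted p = 0.0345) and Elovl4 (log2 change 0.53, SE 0.12, adjusted p = 0.0155), which act in phospholipid synthesis, activation of fatty acids and elongation of very long chains. Scd2, a fatty acid desaturase with the highest count of that list, was not called (log2 change 0.29, adjusted p = 0.491). The count of 3 was 0 without D22 replicate 1, D22 replicate 3 or D25 replicate 2, and 0 with library size alone. Rdh8 did not pass without D22 replicate 1, with adjusted p of up to 0.0678. Rbp3 and Elovl4 did not pass without D22 replicate 1, D22 replicate 3 or D25 replicate 2, with adjusted p of up to 0.166 and 0.136 in turn. Acsl6 did not pass without D22 replicate 1, D22 replicate 3, D25 replicate 1 or D25 replicate 2, with adjusted p of up to 0.26. Agpat3 did not pass without D22 replicate 1, D22 replicate 2, D22 replicate 3, D25 replicate 2 or D25 replicate 3, with adjusted p of up to 0.274.

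Among the 15 largest rises over all genes by the naming rule were 9 members of the lists above, and the other 6 were Kcnj14, AI847159, Cacnb2, Nxnl1, Pcdh15 and Nt5e. Nt5e, the ectonucleotidase CD73 that marks the surface of rod precursors, was at 21.7, 32.9 and 24.7 CPM in the D22 replicates and 103, 112 and 77.7 CPM at D25 (log2 change 1.88, SE 0.22, adjusted p = 4.04e-05). Nxnl1, from which the rod-derived cone viability factor is made, was at 9.14, 14.8 and 16.0 CPM and then 50.04, 62.1 and 46.2 CPM (log2 change 1.99, SE 0.28, adjusted p = 0.000455). Both were apart by more than 2-fold between the nearest libraries of the 2 days. Pcdh15, a protocadherin of the Usher protein group, was at 25.26, 79.8 and 26.2 CPM and then 144, 273 and 89.7 CPM (log2 change 1.95, SE 0.38, adjusted p = 0.00519), and its nearest libraries were D22 replicate 2 and D25 replicate 3. Kcnj14, an inwardly rectifying potassium channel, was at 2.00, 3.70 and 6.60 CPM and then 12.19, 25.0 and 15.28 CPM (log2 change 2.09, SE 0.46, adjusted p = 0.0138). AI847159, a gene known by its clone symbol, is annotated as antisense and may share reads with an overlapping gene. It was at 3.08, 5.77 and 4.51 CPM and then 21.2, 22.4 and 12.9 CPM (log2 change 2.08, SE 0.39, adjusted p = 0.00434). Separate groups were part of the rule that named these 6 genes. Nt5e and Nxnl1 passed in each of the 6 leave-one-out fits. AI847159 did not pass without D22 replicate 1, with adjusted p of up to 0.0602. Pcdh15 and Kcnj14 did not pass without D22 replicate 1 or D25 replicate 2, with adjusted p of up to 0.0917 and 0.13 in turn.

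No cone phototransduction gene was called, where 2.47% of all tested genes were. At that share a list of 10 genes would often hold no call. Of 10 tested cone genes none passed in either direction, and the median log2 change was -0.04; with the replicate block in 6 libraries 1 was called higher, Gnb3 (adjusted p = 0.0408 in 6 libraries and 0.231 in 30), and in 30 none was. Its sums were 1006, 1180 and 905 CPM in the D22 replicates and 1397, 1757 and 861 CPM at D25, with D25 replicate 3 the lowest of the 6. Opn1sw, the short-wave cone opsin, was at 42.5, 114 and 39.8 CPM at D22 and 86.7, 112 and 34.1 CPM at D25 (log2 change 0.25, SE 0.48, adjusted p = 0.881), replicate 2 being high on both days. Arr3, cone arrestin, was at 3.29, 3.90 and 2.08 CPM and then 4.77, 4.65 and 1.85 CPM (log2 change 0.28, SE 0.46, adjusted p = 0.853). Gnat2, the cone transducin alpha subunit, was at 20.6, 7.40 and 14.3 CPM and then 5.00, 10.8 and 2.14 CPM (log2 change -1.24, SE 0.47, adjusted p = 0.166). It was lower at D25 in replicates 1 and 3 and higher in replicate 2. Pde6c, the catalytic subunit of the cone phosphodiesterase, was the 1 cone gene whose groups did not overlap, at 22.5, 14.3 and 19.2 CPM and then 10.9, 13.7 and 5.36 CPM (log2 change -0.90, SE 0.41, adjusted p = 0.265). Gnb3, the beta subunit shared by cones and bipolar cells, had the highest count of the list at 389, 451 and 368 CPM and then 716, 762 and 411 CPM (log2 change 0.65, SE 0.27, adjusted p = 0.223). Whether the change of cone genes differed from that of rod genes was not tested.

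The genes that fell included progenitor, neurogenic and retinoid genes, a few of each. Of 16 listed progenitor genes, 2 fell and none rose, with a median log2 change of -0.25. Fgf15, a growth factor of retinal progenitors (chr7:144896531-144900953, GRCm38), was at 165, 117 and 195 CPM in the D22 replicates and 27.4, 19.5 and 45.3 CPM at D25 and fell (log2 change -2.37, SE 0.34, adjusted p = 0.000433), the largest fall among the called genes of at least 10 CPM that the rule named. Its means were 159 ± 39.2 CPM (SD, n = 3) and 30.7 ± 13.2 CPM (SD, n = 3), and replicate 2 was the lowest library on both days. Sfrp2, a secreted modulator of Wnt signals, was at 55.8, 43.6 and 110.0 CPM and then 32.24, 33.6 and 35.7 CPM and fell (log2 change -1.04, SE 0.28, adjusted p = 0.0415), with D22 replicate 3 well above the rest. Pax6, which is also made by amacrine and ganglion cells, was at 491, 663 and 613 CPM and then 474, 565 and 701 CPM (log2 change -0.02, SE 0.49, adjusted p = 0.998), and overlapped between the days. The count of 2 became 1 without D22 replicate 1, D22 replicate 3 or any 1 D25 library, and with the replicate block it was 3 in 6 libraries and 2 in 30. Fgf15 passed in each of the 6 leave-one-out fits. Sfrp2 did not pass without D22 replicate 1, D22 replicate 3, D25 replicate 1, D25 replicate 2 or D25 replicate 3, with adjusted p of up to 0.338.

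Of 17 genes of neurogenic precursors, 3 fell and none rose, with a median log2 change of -0.48. Atoh7, the factor of ganglion cell competence, was at 4.06, 4.36 and 5.90 CPM in the D22 replicates and 1.12, 1.70 and 2.33 CPM at D25 (log2 change -1.47, SE 0.31, adjusted p = 0.0094). Hes6, a partner of neurogenic factors, was at 322, 341 and 309 CPM and then 204, 184 and 265 CPM (log2 change -0.58, SE 0.16, adjusted p = 0.049). Gadd45a, a growth arrest gene that also answers to DNA damage, was at 25.16, 26.1 and 25.9 CPM and then 14.2, 13.8 and 14.3 CPM (log2 change -0.87, SE 0.19, adjusted p = 0.0127), with almost no spread within a day. In replicate 2, 8 of the 17 were past 2-fold lower (5.47% of all tested genes were) and none higher (3.64%). Neurod4, an early neurogenic factor with the highest count of the list, was at 301, 533 and 336 CPM and then 545, 449 and 516 CPM, higher at D25 in replicates 1 and 3 and lower in replicate 2 (log2 change 0.37, SE 0.33, adjusted p = 0.654). The count of 3 was 1 without D22 replicate 1 or D22 replicate 3, and 0 without D25 replicate 1 or D25 replicate 2. The replicate block called 6 lower and 1 higher in 6 libraries and 2 lower in 30, where Hes6 did not pass (adjusted p = 0.0263 in 6 libraries and 0.0587 in 30). None of 25 proliferation genes was called in either direction (2.47% of all tested genes were), with a median log2 change of -0.30. None of the 25 had a fitted change above 0, where 49.4% of all tested genes did. The list summed to 1555.5, 1415.3 and 1945.0 CPM in the D22 replicates and to 1391.0, 1118.1 and 1646.1 CPM at D25. These sums overlapped between the days and were lower at D25 within each replicate number. The block called 2 lower in 6 libraries and none in 30, and 2 were lower without D22 replicate 2 and 1 without D25 replicate 3. Mki67, made by dividing cells, was at 233, 212 and 249 CPM and then 235, 165 and 259 CPM (log2 change -0.07, SE 0.18, adjusted p = 0.913). Gadd45a did not pass without D22 replicate 1, D25 replicate 1 or D25 replicate 2, with adjusted p of up to 0.0889. Atoh7 did not pass without D22 replicate 3, D25 replicate 1 or D25 replicate 2, with adjusted p of up to 0.0737. Hes6 did not pass without D22 replicate 1, D22 replicate 2, D22 replicate 3, D25 replicate 1 or D25 replicate 2, with adjusted p of up to 0.279.

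Of 14 genes of the retinoid response, measured in a medium with the same 9-cis retinal on both days, 2 fell and none rose, with a median log2 change of -0.66, and each leave-one-out fit also gave 2. Crabp2, the binding protein that brings retinoic acid to its receptors (chr3:87948666-87953376, GRCm38), was at 68.0, 68.4 and 59.1 CPM in the D22 replicates and 19.0, 20.2 and 24.5 CPM at D25 (log2 change -1.62, SE 0.16, adjusted p = 3.87e-06). Its means were 65.2 ± 5.24 CPM (SD, n = 3) and 21.2 ± 2.87 CPM (SD, n = 3), and the spread within a day was small beside the gap. Rbp4, the carrier of retinol, was at 17.9, 12.21 and 16.9 CPM and then 6.07, 4.78 and 3.75 CPM (log2 change -1.69, SE 0.27, adjusted p = 0.0014). Cyp26a1, which degrades retinoic acid, was at 7.65, 8.51 and 6.40 CPM and then 1.17, 2.12 and 1.61 CPM, far apart between the days, and did not pass (log2 change -2.20, SE 0.75, adjusted p = 0.123), and the block gave adjusted p = 0.00213 in 6 libraries and 0.0918 in 30. Stra6, the retinol uptake receptor, was at 25.0, 12.6 and 23.3 CPM and then 10.5, 7.50 and 7.64 CPM (log2 change -1.25, SE 0.45, adjusted p = 0.142, and with the block adjusted p = 0.00613 in 6 libraries and 0.104 in 30). With the block the count of the list was 6 in 6 libraries and 2 in 30. Aldh1a1, a retinoic acid synthase with the highest count of the list, was at 384, 369 and 403 CPM and then 304, 227 and 407 CPM and overlapped (log2 change -0.30, SE 0.33, adjusted p = 0.733). Crabp2 and Rbp4 passed in each of the 6 leave-one-out fits.

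The other genes named for the size of their fall were of mixed roles. Dlx1, a homeobox gene of ventral forebrain and of early inner retinal neurons, was at 10.9, 9.37 and 10.0 CPM in the D22 replicates and 2.99, 2.81 and 4.60 CPM at D25 (log2 change -1.54, SE 0.29, adjusted p = 0.00462). It was the 1 called gene of 10 telencephalon and hypothalamus markers, whose sums were 36.2, 36.8 and 37.5 CPM at D22 and 14.0, 16.7 and 23.7 CPM at D25. The block called 3 of these markers lower in 6 libraries and 3 in 30, and RLE scaling called 2. Among them Fezf2, the marker of that list with the highest count that was not called, was at 17.3, 18.18 and 19.2 CPM and then 7.43, 8.69 and 12.7 CPM (log2 change -0.92, SE 0.26, adjusted p = 0.0541), and with the block adjusted p was 0.0102 in 6 libraries and 0.0234 in 30. Islr2, a membrane protein of growing axons, was at 169, 179.5 and 278 CPM and then 67.3, 76.9 and 98.5 CPM (log2 change -1.37, SE 0.34, adjusted p = 0.0311). Gpnmb, a glycoprotein of melanosomes and macrophages, was at 33.5, 16.3 and 20.7 CPM and then 7.52, 2.30 and 7.07 CPM (log2 change -2.06, SE 0.54, adjusted p = 0.0415). Ano1, a calcium-activated chloride channel, was at 12.7, 14.7 and 14.9 CPM and then 6.40, 6.62 and 4.70 CPM (log2 change -1.26, SE 0.26, adjusted p = 0.00887). Each of these had separate groups, and replicate 2 was the lowest library of Gpnmb on both days. Cdkn1a, which encodes the cell cycle inhibitor p21, was at 197, 134 and 142 CPM and then 68.5, 45.9 and 37.5 CPM (log2 change -1.64, SE 0.34, adjusted p = 0.00871). Eda2r, a receptor of the TNF family, was at 65.7, 37.5 and 28.5 CPM and then 14.6, 9.61 and 7.40 CPM (log2 change -2.06, SE 0.41, adjusted p = 0.00677). Phlda3, a repressor of Akt, was at 27.0, 15.5 and 16.5 CPM and then 7.62, 6.99 and 5.55 CPM (log2 change -1.55, SE 0.28, adjusted p = 0.0035). Psrc1, a spindle-associated protein, was at 48.1, 31.7 and 36.4 CPM and then 16.9, 12.5 and 15.8 CPM (log2 change -1.36, SE 0.20, adjusted p = 0.000455). In Cdkn1a, Eda2r, Phlda3 and Psrc1 D22 replicate 1 was the highest library. The remaining named falls were Arhgef37, Wscd2, Fndc3c1 and Emilin3, with log2 changes from -1.65 to -1.30. Ano1, Psrc1, Wscd2 and Fndc3c1 passed in each of the 6 leave-one-out fits. Phlda3 did not pass without D22 replicate 1, with adjusted p of up to 0.0516. Dlx1 did not pass without D25 replicate 2, with adjusted p of up to 0.0557. Cdkn1a, Eda2r and Arhgef37 did not pass without D22 replicate 1 or D25 replicate 2, with adjusted p of up to 0.0852, 0.0818 and 0.124 in turn. Islr2 did not pass without D22 replicate 1, D22 replicate 3, D25 replicate 1 or D25 replicate 2, with adjusted p of up to 0.166. Gpnmb did not pass without D22 replicate 1, D22 replicate 3, D25 replicate 1, D25 replicate 2 or D25 replicate 3, with adjusted p of up to 0.246. Emilin3 did not pass in any of the 6 leave-one-out fits, with adjusted p of up to 0.188.

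**Figure D3:**
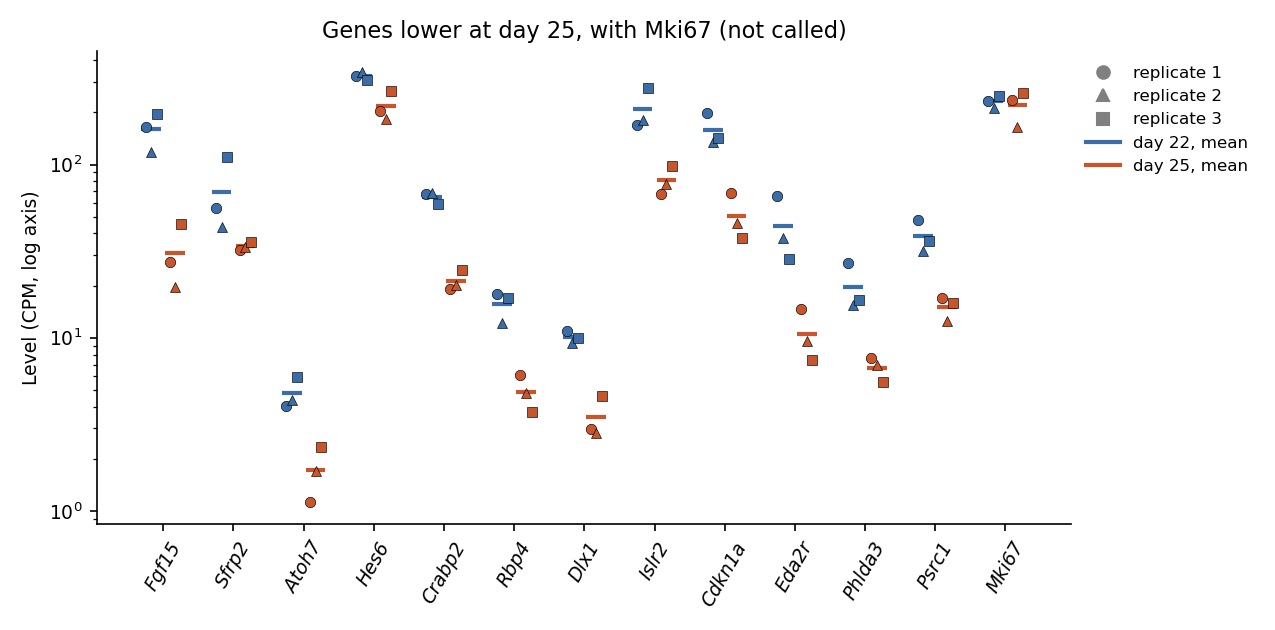
Level in CPM (vertical log axis) of genes that were lower at D25, with Mki67, which was not called, in each of the 3 libraries of D22 and D25; bars are day means and symbols replicates. Fgf15 moved from between 117 and 195 CPM to between 19.5 and 45.3 CPM, while Mki67 overlaps.

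Stress genes were lower at D25 where they passed. Of 14 genes of the amino acid and ER stress response, 3 fell and none rose, with a median log2 change of -0.51, and the replicate block gave 8 in 6 libraries and 3 in 30. Phgdh, the first enzyme of serine synthesis, was at 66.6, 56.9 and 95.9 CPM in the D22 replicates and 39.8, 34.6 and 46.1 CPM at D25 (log2 change -0.87, SE 0.19, adjusted p = 0.0139). Asns, asparagine synthetase, was at 118, 94.5 and 145 CPM and then 85.2, 73.2 and 74.0 CPM (log2 change -0.62, SE 0.15, adjusted p = 0.0267). Sesn2, a stress-induced inhibitor of mTORC1, was at 73.7, 69.1 and 88.1 CPM and then 46.6, 53.8 and 49.0 CPM (log2 change -0.63, SE 0.16, adjusted p = 0.0312). All 3 had separate groups, with D22 replicate 3 the highest. Hspa5, the ER chaperone, was at 393, 353 and 383 CPM and then 338, 370.0 and 334 CPM and did not pass (log2 change -0.11, SE 0.12, adjusted p = 0.709). Of 13 apoptosis genes 1 fell, Pmaip1, a BH3-only protein (log2 change -1.58, SE 0.41, adjusted p = 0.0364). The stress count of 3 was 0 without D22 replicate 1, D22 replicate 3 or D25 replicate 2, and 1 without D25 replicate 1, without D25 replicate 3 or with library size alone. Pmaip1 did not pass without D22 replicate 1, D25 replicate 2 or D25 replicate 3, with adjusted p of up to 0.385. Phgdh did not pass without D22 replicate 1, D22 replicate 3, D25 replicate 1 or D25 replicate 2, with adjusted p of up to 0.125. Asns did not pass without D22 replicate 1, D22 replicate 3, D25 replicate 2 or D25 replicate 3, with adjusted p of up to 0.178. Sesn2 did not pass without D22 replicate 1, D22 replicate 3, D25 replicate 1, D25 replicate 2 or D25 replicate 3, with adjusted p of up to 0.155.

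Immediate early genes, which cells induce quickly on stimulation, were highest in D22 replicate 2. The 12 genes summed to 223.3, 601.8 and 169.5 CPM at D22 and to 178.1, 204.1 and 158.0 CPM at D25. Egr2 was the 1 member called lower, at 1.95, 3.44 and 0.695 CPM and then 0.0467, 0.138 and 0.142 CPM (adjusted p = 0.0277), and no fold is given because the D25 libraries held only a few counts. Egr1, with the highest count, was at 76.4, 199 and 14.9 CPM and then 35.4, 15.32 and 9.73 CPM, with D22 replicate 2 far above the rest (log2 change -2.26, SE 1.02, adjusted p = 0.264). The median log2 change of the list was -1.80, and it was -0.83 without D22 replicate 2. In replicate 2, 10 of the 12 were past 2-fold lower, and the number called lower was 3 without D22 replicate 3 and, with the replicate block, 7 in 6 libraries and 1 in 30. Egr2 did not pass without D22 replicate 1, D22 replicate 2, D25 replicate 1, D25 replicate 2 or D25 replicate 3, with adjusted p of up to 0.142. What these genes contributed to the other results was not tested.

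Lists of other retinal cells held few calls. Of all tested genes 2.47% were called, a share at which lists of this size would hold few calls or none. No gene of 22 for bipolar cells, 19 for ganglion cells or 6 for horizontal cells passed, and with the replicate block in 6 libraries 2 bipolar genes were higher and 2 lower, 1 ganglion gene was higher and 1 lower, and no horizontal gene passed. The block in 30 libraries called none of these genes. Grm6, the glutamate receptor of rod bipolar cells, was below 1 CPM in every library (0.154, 0.253 and 0.298 CPM at D22 and 0.514, 0.230 and 0.285 CPM at D25). Pou4f2, a ganglion cell factor, was at 1.03, 1.82 and 2.38 CPM and then 0.514, 0.736 and 2.75 CPM (log2 change -0.39, SE 0.50, adjusted p = 0.789). Of 22 amacrine genes, Slc6a9, the glycine transporter, rose from 68.5, 72.1 and 80.9 CPM to 123, 141 and 86.9 CPM (log2 change 0.67, SE 0.17, adjusted p = 0.0386), and with the block adjusted p was 0.0515 in 6 libraries and 0.0383 in 30. The block called 5 amacrine genes higher and 2 lower in 6 libraries and 1 higher in 30. Gad1 and Tfap2b, markers of inhibitory amacrine cells, overlapped between the days. Gad1 was at 38.3, 78.5 and 39.0 CPM and then 61.2, 90.3 and 74.4 CPM (log2 change 0.54, SE 0.33, adjusted p = 0.461, and with the block adjusted p = 0.0462 in 6 libraries and 0.407 in 30). Tfap2b was at 156, 283 and 221 CPM and then 245, 373 and 431 CPM (log2 change 0.67, SE 0.53, adjusted p = 0.606, and with the block adjusted p = 0.016 in 6 libraries and 0.602 in 30). Of 18 Müller glia genes, Car2, a carbonic anhydrase, rose from 53.5, 55.3 and 68.1 CPM to 94.3, 96.0 and 86.9 CPM (log2 change 0.65, SE 0.17, adjusted p = 0.0448). Glul, the glutamine synthetase of these glia, was at 365, 291 and 321 CPM and then 334, 264 and 325 CPM and did not pass (log2 change -0.08, SE 0.15, adjusted p = 0.872). Members of high count that were not called included Stmn2 of the ganglion list (log2 change -0.04, adjusted p = 0.99) and Dkk3 of the Müller list (-0.74, adjusted p = 0.182). Dkk3 had separate groups, at 726, 682 and 810.0 CPM and then 439, 355 and 535 CPM, and with the block its adjusted p was 0.00459 in 6 libraries and 0.145 in 30. The median log2 change of the Müller genes was -0.05, and the block called 4 higher and 4 lower in 6 libraries and 1 higher and 1 lower in 30. Slc6a9 did not pass without D22 replicate 1, D22 replicate 2, D22 replicate 3, D25 replicate 1 or D25 replicate 2, with adjusted p of up to 0.264. Car2 did not pass in any of the 6 leave-one-out fits, with adjusted p of up to 0.257.

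Hk1, a hexokinase, was the 1 of 20 glycolysis genes that rose, from 102, 140.0 and 152 CPM to 206, 314 and 242 CPM (log2 change 0.95, SE 0.21, adjusted p = 0.0133). Nsf, which recycles the fusion machinery of synaptic vesicles, was the 1 of 14 synaptic vesicle genes that rose, from 80.9, 81.8 and 84.5 CPM to 113, 134 and 120.4 CPM (log2 change 0.57, SE 0.11, adjusted p = 0.0035). With the replicate block the glycolysis count was 4 in 6 libraries and 1 in 30, and the synaptic vesicle count was 9 in 6 libraries and 1 in 30. No gene of the hypoxia, respiratory chain, mitochondrially encoded, cholesterol synthesis, interferon or glial stress lists passed (2.47% of all tested genes did). The medians of these lists lay between -0.22 and 0.23. With the block in 6 libraries, 1 respiratory chain gene and 1 glial stress gene were higher, and 1 glial stress gene and 2 mitochondrially encoded genes were lower, and in 30 libraries none of them passed. Nsf passed in each of the 6 leave-one-out fits. Hk1 did not pass without D22 replicate 1 or D25 replicate 2, with adjusted p of up to 0.138.

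Markers of tissues outside the neural retina were low or uneven between libraries. Pigment cell genes, 13 in number, summed to 223.6, 50.6 and 135.5 CPM in the D22 replicates and to 62.7, 40.8 and 62.0 CPM at D25, and none passed, while the block called 4 in 6 libraries and 1 in 30 lower. Most of the difference between libraries of D22 was Ttr, a carrier protein of pigment epithelium and choroid plexus, at 136, 1.87 and 53.8 CPM and then 25.32, 8.28 and 11.8 CPM (log2 change -2.08, SE 1.37, adjusted p = 0.508). Cldn5, a tight junction gene of endothelium, fell from 3.18, 4.46 and 2.78 CPM to 0.234, 0.920 and 0.475 CPM (log2 change -2.66, SE 0.66, adjusted p = 0.0298), and Erbb3, a receptor of Schwann and neural crest cells, fell from 6.32, 4.25 and 5.46 CPM to 2.66, 1.43 and 1.85 CPM (log2 change -1.43, SE 0.24, adjusted p = 0.00204). Kdr, an endothelial receptor that retinal progenitors also make, was at 348, 314 and 329.6 CPM and then 417, 252 and 313 CPM and did not pass (log2 change -0.01, SE 0.37, adjusted p = 1). Fibroblast genes summed to 90.7, 44.0 and 48.1 CPM at D22 and 76.7, 26.4 and 68.9 CPM at D25, replicate 2 being the lowest on both days, with no call (2 lower with the block in 6 libraries and none in 30). The hindbrain, pluripotency and microglia and blood lists summed to at most 8.69 CPM in any library, and the lens list to 5.27 to 8.56 CPM outside D22 replicate 1, where it was highest, all with no call. The part of pigment and fibroblast RNA in the changes between days was not tested. Erbb3 passed in each of the 6 leave-one-out fits. Cldn5 did not pass in any of the 6 leave-one-out fits, with adjusted p of up to 0.127. The plot of list medians sets all of these lists beside each other.

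**Figure D4:**
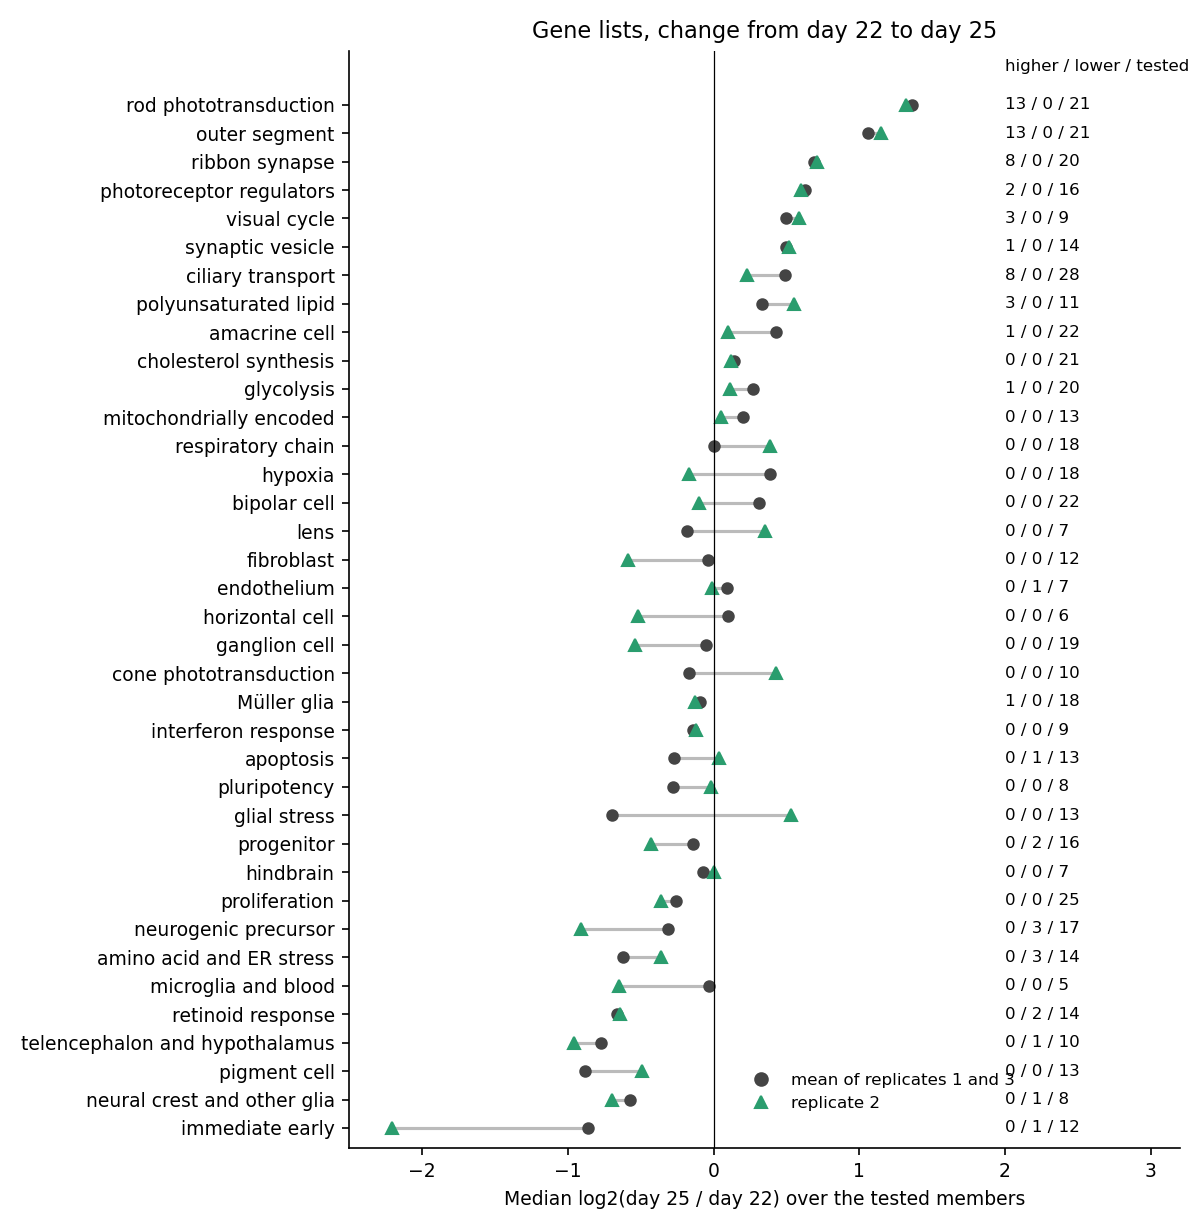
Median log2 ratio of D25 to D22 over the tested members of each gene list described in the report (horizontal axis), as circles for the mean of replicates 1 and 3 and triangles for replicate 2. Rod phototransduction lies furthest to the right in both (1.36 and 1.32), and the immediate early list lies furthest to the left in replicate 2 (-2.21).

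Replicates 1 and 3 alone, tested with replicate 2 given its own mean on every day, had 74 genes higher (0.372%) and 52 lower (0.261%) at D25. That total of 126 was 47 without D22 replicate 3, 37 without D25 replicate 3, and 0 without D22 replicate 1 or D25 replicate 1, where edgeR found 1585 and 1645 genes at an unadjusted p below 0.05. Of the genes called in all 3 replicates, 68 of the 288 and 46 of the 203 were also called in replicates 1 and 3. Replicate 2 has 1 library a day and no test of its own, and its ratio was past 2-fold higher for 724 genes (3.64%) and past 2-fold lower for 1089 genes (5.47%). For the mean of replicates 1 and 3 the same counts were 558 and 796. A mean over 2 replicates varies less than 1 replicate, so these counts are not directly comparable with those of replicate 2. Of the 74 genes called higher in replicates 1 and 3, 73 also had a positive ratio in replicate 2 (98.6%, where 50.4% of all tested genes had one) and 37 were past 2-fold, and the median log2 ratio was 1.00 in replicate 2 against 1.21 in replicates 1 and 3. Of the 52 called lower, 51 had a negative ratio in replicate 2 (98.1%, against 47.5% of all genes) and 13 were past 2-fold, with medians of -0.60 and -1.16. The medians of the called genes are those of the replicates that chose them, so the 2 medians are not on equal terms.

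The 2 exceptions, singled out after their values were seen, were Akap8l and Ung. Akap8l, a nuclear anchoring protein, was at 46.4, 73.5 and 52.6 CPM in the D22 replicates and 81.8, 72.5 and 86.0 CPM at D25, with replicate 2 level between the days. Ung, the uracil glycosylase of DNA repair, was at 11.2, 5.83 and 13.3 CPM and then 6.07, 5.98 and 6.64 CPM, again level in replicate 2. When the change in replicate 2 was tested against that in replicates 1 and 3, no gene was called by edgeR, and 536 had an unadjusted p below 0.05. Replicate 2 has 1 library a day in that test, so the absence of calls does not show that the replicates changed alike. The test takes the spread of replicate 2 to be that of replicates 1 and 3. Photoreceptor genes with large rises had similar ratios in the replicates: the log2 ratio of Cnga1 was 3.70 in replicate 2 and 3.83 in replicates 1 and 3, and that of Cacna1f was 2.12 and 2.29. Over the 21 rod genes 17 were past 2-fold higher in replicate 2 and all 21 had a positive ratio, with a median of 1.32 beside 1.36 in replicates 1 and 3. Among the falls, Fgf15 had -2.58 and -2.35, and Crabp2 -1.75 and -1.55. Cnga1, Cacna1f, Fgf15 and Crabp2 were named for a call over all 3 replicates and for separate groups. Ratios of 1 direction in the replicates were therefore favoured by that choice. Wscd2 had -0.64 in replicate 2 and -1.91 in replicates 1 and 3. Its unadjusted p in the edgeR test of that difference was 0.00826, and it was not called. Wide gaps, picked after the values were seen, were those of Ttr (2.08 against -2.30), Gnat2 (0.54 against -2.35) and Egr1 (-3.69 against -0.86). None of these 3 was called.

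**Figure D5:**
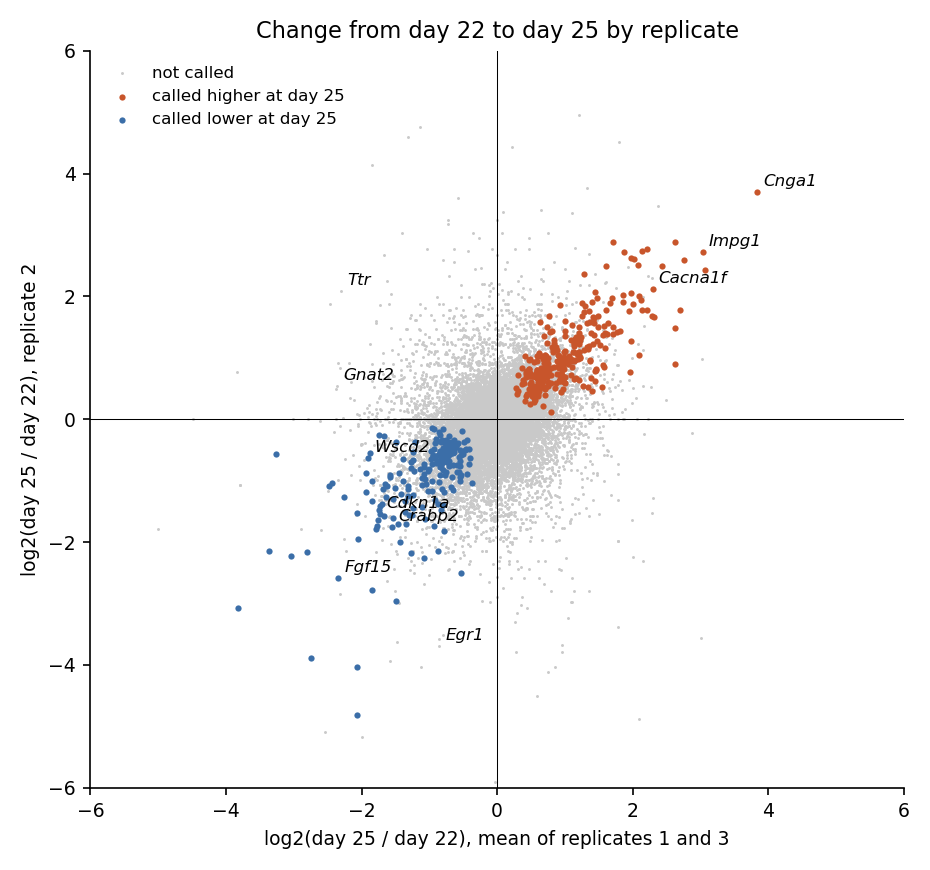
Log2 ratio of D25 to D22 in replicate 2 (vertical axis) against the mean of replicates 1 and 3 (horizontal axis) for the tested genes, coloured by the call over all 3 replicates. Called genes lie in the upper right and lower left, a position that a call over all 3 replicates favours. Cnga1 lies at 3.70 in replicate 2 and 3.83 in replicates 1 and 3. Gnat2 and Ttr, which were not called, lie in the upper left. Rps12l1 and Gm28635 fall outside the axes.

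The days before and after give a comparison that shares no library with this one. Both comparisons come from 1 fit of all 30 libraries, so they share the estimated spread of each gene. A gene with a small spread passes more readily in both, so the overlap of their calls is not an independent check. Between D18 and D32, 20.6% of the tested genes rose and 23.7% fell. Of the 288 genes that rose from D22 to D25, 273 (94.8%) were also higher at D32 than at D18 and 1 was lower. Of the 203 that fell, 163 (80.3%) were also lower at D32 and 2 were higher. Of the 288, 214 had their highest day mean at D32 and 51 at D25. Over all 19897 tested genes, 4250 had it at D32 and 1735 at D25. The day means of D22 and D25 also chose the 288, so their peak days were in part fixed by that choice. Cnga1 was at a mean of 0.0150 CPM at D18 and 218 CPM at D32, beside the 2.83 and 32.8 CPM of D22 and D25. Nrl had its highest mean at D25 (881 CPM), with 36.3 CPM at D18 and 819 CPM at D32. Fgf15 went from 745 CPM at D18 through 159 and 30.7 CPM to 3.39 CPM at D32. The day means of Cdkn1a were 173, 158, 50.6 and 193 CPM at D18, D22, D25 and D32, so that its D32 mean lay above that of D22. The medium changed at D26, so time and medium cannot be told apart at D32.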

How the data were processed

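Stranded mRNA libraries of mouse iPSC retina organoids were compared between D22 and D25, 3 libraries a day. The submitters' processing notes name Trimmomatic 0.36, the pseudoaligner kallisto 0.42.4 (which divides a read that fits several transcripts among them) and build GRCm38.p4. The table deposited by the authors gives an estimated count per gene, which is not whole and was rounded here. Normalised CPM, deposited by the authors as a scaled signal after edgeR (version not given), served only for the limma alternatives. How transcripts were summed to genes and whether strand was used in counting is not stated, so overlapping and antisense genes may share reads. Columns of no listed sample (9 in 3 tables) were not used.

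Of 45594 genes, filterByExpr (minimum count 10, minimum total 15, the 10 days as groups) kept 19897, with at least 99.91% of the counts of each of the 6 libraries. The fit had TMM scaling (factors 1.043 to 1.162), 1 mean per day over 30 libraries, edgeR 4.0.16 in R 4.3.3 and Benjamini-Hochberg adjustment. The split fit gave replicate 2 its own mean per day. Log2 ratios of replicates used CPM with a prior count of 2. Scripts were tested on simulated data. Replicates of a day differed beyond sampling noise (chi-square per degree of freedom 22.54 to 40.19). The deviations from the day means of libraries with the same replicate number correlated at 0.28, 0.29 and 0.32, each above the 0.1 set for pairing, so fits with a replicate block, in the 6 libraries and in all 30, are given beside named genes whose call either fit changes and beside list counts that it moves; the pairing comes from the data, not from the labels.

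The comparison, the members and the 37 gene lists (551 genes, 531 tested) were chosen with earlier results of these data known, and 1 more list, of p53 targets, was added after values were seen. Named genes were the 15 largest rises and the 15 largest falls among called genes with separate groups and 10 CPM or more as the mean of the day with the higher level (leaving out shared symbols, pseudogenes and predicted genes), up to 4 called members of each list with the largest fold, the member of highest count not called (for lists described at length), and markers. Some genes that the rule named are not reported here. Other members of the rod and other photoreceptor lists and of the cone and retinoid lists were added after their values were seen. Alternatives were RLE or no scaling factors, DESeq2 1.42.0, 2 other filters, limma 3.58.1 on deposited CPM plus 1 or 0.1, the replicate block, replicate 2 as a term, fewer libraries and leaving out each library. Promoter sequences are from RefSeq on GRCm38.p6.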

Additional observations from a re-analysis of the deposited data

How the results depend on the processing

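The 491 genes called between D22 and D25 (288 higher, 203 lower) became 1024 with DESeq2 (595 and 429), 819 with limma on deposited CPM plus 1 (548 higher), 287 with library size alone (133 higher), 97 with the 6 libraries only (65 and 32) and 1104 with replicate 2 as a term in 18 libraries (622 and 482). The replicate block, used because same-numbered libraries were paired by their deviations, gave 1440 (776 and 664) in 6 libraries and 544 in 30. Leaving out each library gave 75 to 766 (46 to 401 higher, 29 to 365 lower). For replicates 1 and 3 the 126 calls became 572 without an expression filter, 568 with DESeq2, 331 with limma plus 1, and 0 in a fit of the 4 libraries only, where edgeR left 3022 genes at an unadjusted p below 0.05; leaving out each library gave 0 to 47. The block of replicates 1 and 3 gave 155. The causes of these shifts were not tested. The residual degrees of freedom were 2 in the 6-library block fit (1440 calls) and 20 in the reported fit (491 calls). The test of replicate 2 against replicates 1 and 3 called 0 genes under each alternative run, with 475 to 1097 genes at an unadjusted p below 0.05. The replicate 2 count of 1813 stayed within 1.5 times under each alternative (1433 to 2489). Of 165 named or listed genes, 88 of them called, none changed direction in a called value under any alternative. Calls lost numbered 59 without D22 replicate 1, 55 without D25 replicate 2, 51 with the 6 libraries only, 1 with the replicate block in 6 libraries, which added 18, and 1 with the block in 30, which added 2. Depth limits genes near 0, since the libraries held 16.77 to 20.85 M counts.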

Other observations

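One list of 30 p53 target genes was drawn up after the falls of Cdkn1a, Eda2r and Phlda3 had been seen, so its counts are a description and support nothing. Of the 30, 9 fell and none rose, with a median log2 change of -0.57, and the list summed to 1858, 1787 and 1714 CPM in the D22 replicates and to 1454, 1441 and 1325 CPM at D25. The groups did not overlap, and the count was 2 without D22 replicate 1, 3 without D25 replicate 2, 5 with library size alone and, with the replicate block, 11 (and 1 higher) in 6 libraries and 10 in 30. Beside Cdkn1a, Eda2r, Phlda3, Psrc1 and Sesn2, which the report gives, the called members were Aen, Tnfrsf10b, Ddit4l and Pmaip1. Aen, a nuclease of apoptosis, was at 91.7, 57.8 and 89.8 CPM in the D22 replicates and 39.9, 33.4 and 35.6 CPM at D25 (log2 change -1.13, SE 0.19, adjusted p = 0.00192). Tnfrsf10b, a death receptor, was at 16.1, 11.1 and 11.5 CPM and then 7.52, 4.88 and 6.36 CPM (log2 change -1.04, SE 0.23, adjusted p = 0.0115). Ddit4l, an inhibitor of mTOR signalling, was at 11.4, 8.41 and 6.10 CPM and then 4.06, 2.44 and 4.60 CPM (log2 change -1.22, SE 0.30, adjusted p = 0.0254). Pmaip1, a BH3-only protein, was at 4.88, 1.87 and 2.13 CPM and then 1.40, 0.506 and 1.04 CPM (log2 change -1.58, SE 0.41, adjusted p = 0.0364). Btg2, with the highest count, was at 409, 613 and 457 CPM and then 508, 517 and 463 CPM and did not pass (log2 change 0.01, SE 0.16, adjusted p = 0.996). In replicate 2 alone, 8 of the 30 were past 2-fold lower and 1 higher. Aen passed in each of the 6 leave-one-out fits. Tnfrsf10b did not pass without D22 replicate 1 or D25 replicate 2, with adjusted p of up to 0.122. Ddit4l did not pass without D22 replicate 1, D25 replicate 1 or D25 replicate 2, with adjusted p of up to 0.225. Pmaip1 did not pass without D22 replicate 1, D25 replicate 2 or D25 replicate 3, with adjusted p of up to 0.385.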
